A study of Mus musculus with 12 samples.

Results

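Imprinted genes are expressed from the copy of only the mother or only the father, and 10 of them, long noncoding RNAs and close neighbours, were followed through a pulldown of the noncoding RNA Gas5. The 10 were taken as the named rows Meg3, Rian, Mirg, Snhg14, Ube3a, Snrpn, Kcnq1ot1, Peg3, H19 and Airn of a total RNA table of 49489 genes, and all 10 rows were found. Hippocampi of newborn mice (postnatal day 0) were cultured, and RNA from these primary neurons was taken at day 16 in vitro. The titles give 3 antisense and 3 sense libraries for total RNA, and the same numbers for small RNA. The labels give no strain, genotype or treatment, do not say whether antisense or sense was the capture of Gas5, and name no separate cultures for the libraries of a group. The p-values therefore reflect only how far these libraries differ, which could be technical spread.

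Imprinted genes lie in clusters, and many clusters hold a long noncoding RNA that is transcribed from 1 parental copy. In mice, Kcnq1ot1 and Airn are made from the paternal copy and silence neighbouring genes on that copy, while Meg3, Rian and Mirg are made from the maternal copy of the Dlk1-Dio3 domain. In neurons the paternal Snhg14 transcript runs from the Snrpn start region across Ube3a on the other strand, and Ube3a is then expressed mainly from the maternal copy. Ube3a encodes a ubiquitin ligase whose loss in brain causes Angelman syndrome. Peg3 and Snrpn are paternally expressed protein-coding genes, for a zinc finger protein and a splicing-related protein, and H19 is a maternally expressed noncoding RNA that is high in fetal tissue.

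Ube3a and Snhg14, and likewise Airn and Igf2r, are read from opposite strands, so the bases around the annotated starts of these pairs and of Kcnq1ot1 show where each transcript begins. Each window runs from 250 bases before to 50 bases after a start (RefSeq, GRCm38.p6) and is written 5′ to 3′ on the strand of its gene. Its CpG dinucleotides, sites where DNA methylation can lie, are in capitals, and methylation was not measured here. Such a window was found for 9 of the 10 genes. The first annotated starts of Snhg14 and Snrpn share a window, chr7:60450128-60450427 on the minus strand, with 2 CpG. Windows of later annotated Snrpn starts, not printed here, have 3, 4 and 7 CpG. The Ube3a window, chr7:59228500-59228799 on the plus strand, has 29. The Airn window, chr17:12741061-12741360 on the plus strand, has 3, and the window of Igf2r, chr17:12769657-12769956 on the minus strand, has 34. The Kcnq1ot1 window, chr7:143296498-143296797 on the minus strand, has 9. The median over 32851 windows was 7.
Snhg14 and Snrpn: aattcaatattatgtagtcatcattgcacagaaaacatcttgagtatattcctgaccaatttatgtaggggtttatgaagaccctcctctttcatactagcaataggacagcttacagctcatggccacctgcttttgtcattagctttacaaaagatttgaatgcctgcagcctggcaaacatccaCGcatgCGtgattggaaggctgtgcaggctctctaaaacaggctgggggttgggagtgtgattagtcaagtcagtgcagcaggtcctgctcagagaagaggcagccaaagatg
Ube3a: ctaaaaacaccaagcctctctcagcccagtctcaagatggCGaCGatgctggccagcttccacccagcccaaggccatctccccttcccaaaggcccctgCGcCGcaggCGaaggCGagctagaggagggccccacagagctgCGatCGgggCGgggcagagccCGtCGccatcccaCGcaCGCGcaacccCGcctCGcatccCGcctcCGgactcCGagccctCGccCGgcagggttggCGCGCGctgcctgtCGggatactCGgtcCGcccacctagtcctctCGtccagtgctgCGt
Airn: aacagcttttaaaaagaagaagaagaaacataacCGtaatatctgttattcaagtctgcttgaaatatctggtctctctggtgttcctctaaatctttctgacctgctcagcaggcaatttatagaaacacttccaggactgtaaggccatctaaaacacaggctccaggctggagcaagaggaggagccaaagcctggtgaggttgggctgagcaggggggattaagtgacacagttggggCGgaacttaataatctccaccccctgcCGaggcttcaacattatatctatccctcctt
Igf2r: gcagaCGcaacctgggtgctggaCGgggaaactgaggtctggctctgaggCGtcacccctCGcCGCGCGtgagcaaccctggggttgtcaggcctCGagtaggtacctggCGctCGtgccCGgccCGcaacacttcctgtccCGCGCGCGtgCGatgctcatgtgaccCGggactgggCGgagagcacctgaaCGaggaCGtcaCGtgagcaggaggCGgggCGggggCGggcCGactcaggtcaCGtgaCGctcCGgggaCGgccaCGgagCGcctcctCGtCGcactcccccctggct
Kcnq1ot1: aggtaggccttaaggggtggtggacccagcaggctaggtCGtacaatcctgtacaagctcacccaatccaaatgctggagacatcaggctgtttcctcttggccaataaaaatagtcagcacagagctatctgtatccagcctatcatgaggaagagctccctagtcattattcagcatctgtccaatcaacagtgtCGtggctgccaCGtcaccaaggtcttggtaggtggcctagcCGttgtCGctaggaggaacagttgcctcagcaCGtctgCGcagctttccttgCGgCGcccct

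Total RNA libraries held 5774904 to 10424024 rounded counts. Gas5 itself was lower in antisense, at 90938 ± 21187 CPM (counts per 1000000, scaled by TMM) against 623732 ± 306607 in sense (SD, n = 3 each). These CPM are not shares of a library, because TMM factors were 1.25 to 1.32 in antisense and 0.608 to 0.995 in sense. In sense replicate 1, Gas5 held 5954870 of 10424024 rounded counts and stood at 941554 CPM. In antisense replicate 1 it held 564204 of 5812874 and stood at 74183 CPM. Marker genes of other cells than neurons were present: 6 astrocyte markers summed to 1019 to 1284 CPM in antisense and 1190 to 1538 in sense, beside 772 to 971 and 977 to 1227 for 8 neuronal markers. Sums for 9 fibroblast and vascular markers were 95.9 to 103 in antisense and 103 to 128 in sense, and for 6 oligodendrocyte lineage markers 318 to 341 and 340 to 442. Sums for 6 microglia markers were 17.6 to 21.4 in antisense and 9.08 to 12.02 in sense. Of 5 erythroid markers Hba-a2 and Hbb-bt were at 0 in all libraries, and the sum was 15.1 to 16.9 in antisense and 0 to 0.474 in sense. In RNA from a pulldown, the number of cells of a type, RNA per cell and what was captured cannot be told apart.

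Ube3a changed most among the 10 genes: its level in the antisense libraries was 2.01 times that in the sense libraries. Airn was also higher in antisense and Peg3 lower, both by less. Kcnq1ot1 was higher in every antisense library without passing the test, and Meg3, Rian, Mirg, Snhg14 and Snrpn did not pass either. H19 had too few counts to be tested. Each difference is antisense minus sense from edgeR's quasi-likelihood test over 20049 genes, with Benjamini-Hochberg adjustment at 0.05. Of all tested genes 18.2% were called higher and 4.35% lower, beside 2 of the 9 tested members higher and 1 lower, so these counts do not set the members apart. All antisense libraries lay above all sense libraries for 3 of the 9 and below for 2, against 23.4% and 13.2% of all genes. The median log2 fold change of the 9 was -0.08, against -0.01 over all genes. Scaled by library totals alone, which include Gas5, the median of all genes was 0.70, and the sign turned positive for the lower genes Peg3 (0.33), Igf2r (0.41), Herc2 (0.36) and Zdbf2 (0.16), so "lower" is meant relative to the other genes throughout.

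**Figure D1:**
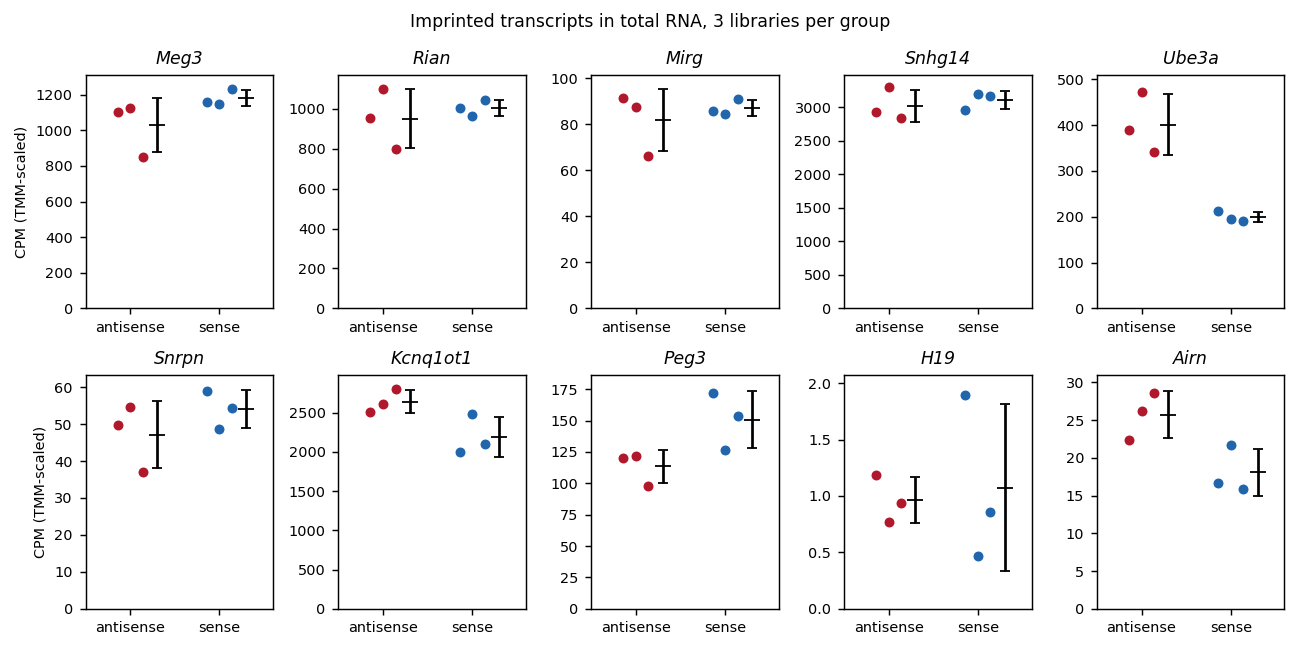
CPM (TMM-scaled, linear axis from 0) of the 10 imprinted transcripts in total RNA. Points are libraries, 3 antisense in red and 3 sense in blue, and the bars give mean and SD. Ube3a stands at 340 to 472 CPM in antisense and 190 to 212 in sense, while Snhg14, on the other strand, overlaps between the groups.

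Snhg14, which lies on the minus strand of chromosome 7 from 59272737 to 60450177, covers 38101 bases of Ube3a (chromosome 7 from 59228750 to 59310837, plus strand). Ube3a stood at 389, 472 and 340 CPM in antisense replicates 1, 2 and 3 and at 212, 196 and 190 CPM in sense replicates 1, 2 and 3. All antisense libraries lay above all sense libraries, and the sense libraries lay close together. The log2 fold change of Ube3a was 1.01 (SE 0.114; edgeR adjusted p = 8.90e-06), and it passed whichever library was left out (adjusted p from 1.71e-06 to 0.000219). Snhg14 stood at 2935, 3299 and 2843 CPM in antisense and at 2957, 3196 and 3176 CPM in sense. Its groups overlapped, and its log2 fold change was -0.04 (SE 0.0943; edgeR adjusted p = 0.818). The authors' deposited table, which gives sense over antisense, holds a log2 fold change of -1.001 for Ube3a (adjusted p = 3.13e-15) and of 0.05 for Snhg14 (adjusted p = 0.841).

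The balance of Snhg14 to Ube3a within a library does not depend on how libraries are scaled. There were 7.536, 6.997 and 8.351 Snhg14 counts per Ube3a count in the antisense libraries and 13.9, 16.3 and 16.7 in the sense libraries. The log2 ratio was lower in antisense by 2.05-fold (log2 difference -1.04) and the groups did not overlap (exact permutation test, two-sided, p = 0.1, the smallest that 3 against 3 libraries can give). Whether counting used strand is not given in the sources used here, so reads from Ube3a and from Snhg14 within their shared span may not be told apart.

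Snrpn, whose annotated span on chromosome 7 (59982495 to 60450177, minus strand) lies within that of Snhg14 on the same strand, did not follow Ube3a. It stood at 49.8, 54.6 and 37.0 CPM in antisense and 59.0, 48.6 and 54.5 CPM in sense (log2 fold change -0.20, SE 0.133; edgeR adjusted p = 0.341). The ranges overlapped, with the lowest value in antisense replicate 3. Per Snrpn count there were 58.9, 60.5 and 76.9 Snhg14 counts in antisense and 50.1, 65.7 and 58.3 in sense, which also overlapped (log2 difference 0.17; exact permutation p = 0.4). Snurf, which shares the Snrpn locus and in RefSeq lies within the spans of Snrpn and Snhg14, had 97 counts in antisense and 44 in sense. It did not pass (log2 fold change 0.83, SE 0.309; edgeR adjusted p = 0.0699). Its antisense libraries, at 4.21, 4.88 and 3.62 CPM, all lay above its sense libraries, at 1.74, 2.49 and 2.91, as for 23.4% of all genes.

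**Figure D2:**
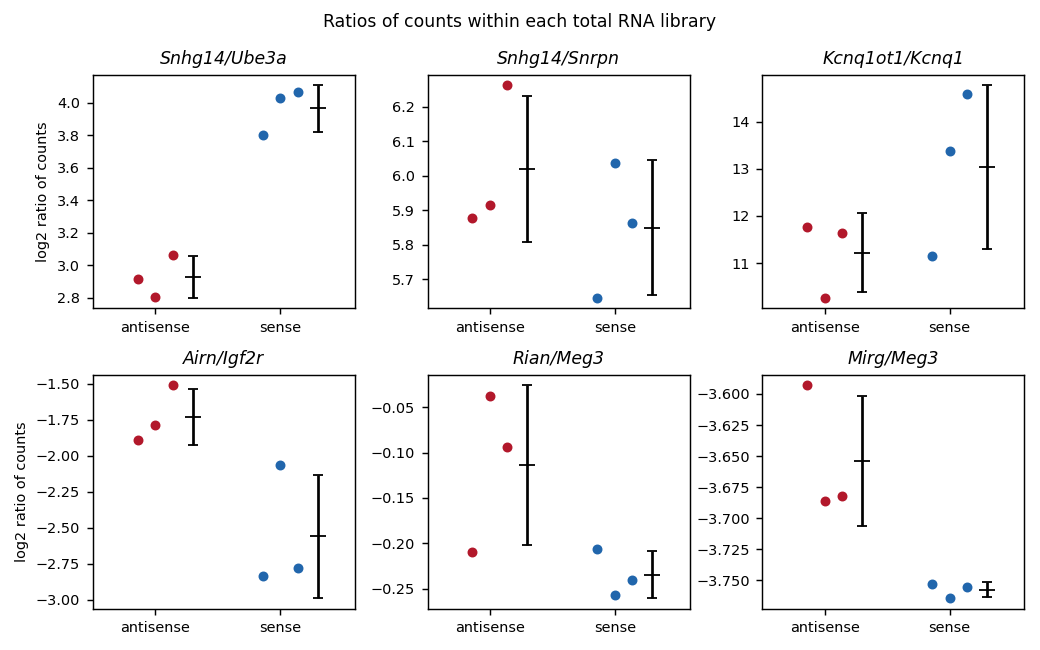
log2 ratio of 2 genes' counts within each total RNA library (vertical axes do not start at 0 and differ between panels), for 6 pairs. Points are libraries, antisense in red and sense in blue, and bars are mean and SD. Snhg14 to Ube3a, Airn to Igf2r and Mirg to Meg3 show no overlap between groups.

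Airn, on the plus strand of chromosome 17 from 12741311 to 12859884, overlaps 28396 bases of Igf2r, the gene of a receptor that carries insulin-like growth factor 2 to lysosomes and that Airn silences on the paternal copy in most mouse tissues. Airn stood at 22.4, 26.2 and 28.5 CPM in antisense replicates 1, 2 and 3 and at 16.6, 21.7 and 15.9 CPM in sense, so the highest sense library lay just below the lowest antisense library. Its log2 fold change was 0.51 (SE 0.149; edgeR adjusted p = 0.0225). The call was lost without antisense replicate 2 (adjusted p = 0.0611), antisense replicate 3 (0.0826), sense replicate 1 (0.102) or sense replicate 3 (0.113). Igf2r went the other way, from 107 ± 14.4 CPM in sense to 85.0 ± 4.72 CPM in antisense (SD, n = 3 each), or -0.33 on the log2 scale (SE 0.106; edgeR adjusted p = 0.0384). That call ended with a replicate block (adjusted p = 0.0732), at a minimum count of 50 (0.0753), with Gas5 left out of the totals (0.0511), and without antisense replicate 1 (0.117), antisense replicate 3 (0.0908), sense replicate 1 (0.165) or sense replicate 3 (0.117).

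There were 0.269, 0.290 and 0.350 Airn counts per Igf2r count in the antisense libraries and 0.139, 0.238 and 0.145 in the sense libraries. This ratio was 1.78-fold higher in antisense (log2 difference 0.83), with no overlap between groups (exact permutation p = 0.1, the smallest possible). In the authors' deposited table the sense over antisense log2 fold change is -0.49 for Airn (adjusted p = 0.0757) and 0.33 for Igf2r (adjusted p = 0.0440).

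Kcnq1ot1, on the minus strand of chromosome 7 from 143213111 to 143296547, lies wholly within the span of the potassium channel gene Kcnq1. It stood at 2504, 2611 and 2795 CPM in antisense and at 1994, 2475 and 2096 CPM in sense. The groups did not overlap, though sense replicate 2 came close to the antisense libraries. Its log2 fold change was 0.27 (SE 0.102), and the edgeR adjusted p of 0.0750 missed the threshold. It passed with DESeq2 (adjusted p = 0.0402), with no filter on low counts (0.0281) and without sense replicate 2 (0.0111), and the authors' deposited table gives a sense over antisense log2 fold change of -0.26 (adjusted p = 0.0280). Kcnq1 had only 27 counts over the antisense group and 6 over the sense group and was not tested. The log2 ratio of Kcnq1ot1 to Kcnq1 overlapped between groups (difference -1.81; exact permutation p = 0.3). Its size rests on Kcnq1 counts of 5, 16 and 6 in antisense and 5, 1 and 0 in sense. It was -0.95 with a pseudocount of 2 in place of 0.5, -2.75 without sense replicate 1 and -1.04 without sense replicate 3.

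Sense replicate 2 had the highest sense value of both Kcnq1ot1 and Airn and the lowest of Peg3 and Snrpn. Among the antisense libraries, replicate 3 had the lowest Meg3, Rian, Mirg, Snhg14, Ube3a, Snrpn and Peg3 and the highest Kcnq1ot1 and Airn. Of the antisense libraries it also had the lowest summed neuronal (772 CPM), astrocyte (1019), oligodendrocyte lineage (318) and fibroblast and vascular (95.9) markers, but not the lowest microglia (19.3) or erythroid (16.9) markers. The part of cell makeup in these results was not tested.

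Peg3, on the minus strand of chromosome 7 from 6703892 to 6730462, was the member that fell. It stood at 120, 122 and 98.1 CPM in antisense replicates 1, 2 and 3 and at 172, 127 and 154 CPM in sense replicates 1, 2 and 3. The groups did not overlap, by a narrow gap to sense replicate 2. The log2 fold change was -0.41 (SE 0.120; edgeR adjusted p = 0.0217), and the call was lost without antisense replicate 3 (adjusted p = 0.0785), sense replicate 1 (0.115) or sense replicate 3 (0.0697). In sense replicate 1, where Peg3 was highest, the sums of all 6 marker lists were also the highest of the sense libraries, and their part in the result was not tested. Usp29, which starts beside Peg3 on the other strand, and Zim1 did not pass, with log2 fold changes of -0.06 and 0.04.

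**Figure D3:**
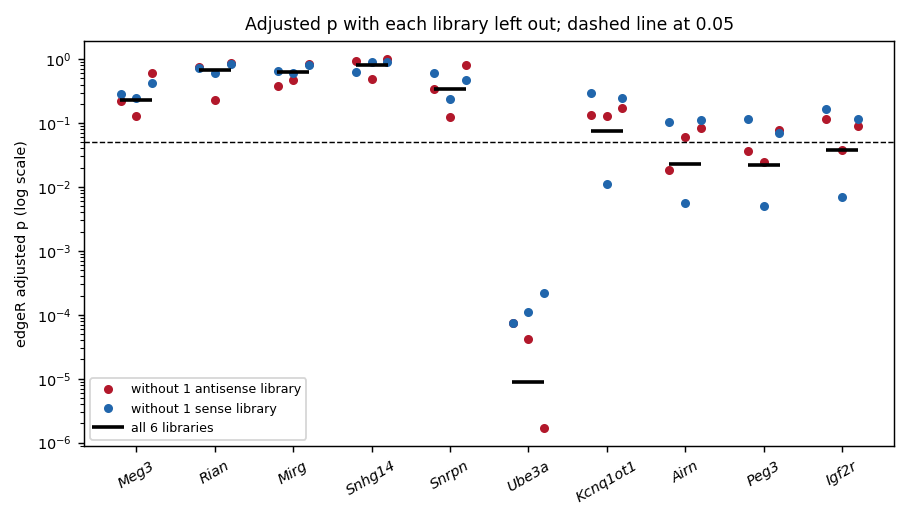
edgeR adjusted p (log axis) of 9 members and Igf2r with all 6 libraries (black line) and with each library left out (red, an antisense library; blue, a sense library). Ube3a stays under the dashed line at 0.05 throughout, while the calls of Airn, Peg3 and Igf2r each cross it without 1 or another library.

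The maternally expressed noncoding RNAs of the Dlk1-Dio3 domain lie one after the other on the plus strand of chromosome 12, Meg3 from 109540996 to 109571729, Rian from 109603945 to 109661716 and Mirg from 109734981 to 109749458. Meg3 is known to bind chromatin regulators, Rian hosts small nucleolar RNAs and Mirg hosts miRNAs. Meg3 stood at 1105, 1126 and 852 CPM in antisense and at 1159, 1148 and 1231 CPM in sense. All antisense values were the lower ones, but the gap was small and Meg3 did not pass (log2 fold change -0.20, SE 0.109; edgeR adjusted p = 0.227). Rian stood at 955, 1097 and 799 CPM in antisense and at 1004, 961 and 1042 CPM in sense (log2 fold change -0.08, SE 0.11; edgeR adjusted p = 0.682). Mirg stood at 91.5, 87.5 and 66.3 CPM in antisense and at 85.9, 84.5 and 91.1 CPM in sense (log2 fold change -0.09, SE 0.115; edgeR adjusted p = 0.634). For both the groups overlapped, and both were lowest in antisense replicate 3, as was Meg3.

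The proportions of these RNAs were also compared within each library. There were 0.865, 0.974 and 0.937 Rian counts per Meg3 count in antisense and 0.867, 0.837 and 0.847 in sense, which overlapped (log2 difference 0.12; exact permutation p = 0.2). Mirg counts per Meg3 count were 0.0828, 0.0776 and 0.0778 in antisense and 0.0741, 0.0735 and 0.0740 in sense. All antisense ratios of Mirg to Meg3 were higher, by 1.07-fold (log2 difference 0.10; exact permutation p = 0.1, the smallest possible). Of the 6 ratios compared, 3 did not overlap between groups. Among single genes 36.6% did not overlap, and the share among ratios of other genes was not computed, so nothing is read from that count.

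Over the 6 total RNA libraries, among 11000 other tested genes with a mean of at least 10 CPM, the profiles most like Meg3 in log2 CPM were those of Caln1, Snhg11 and Pawr, with Pearson correlations of 0.999, 0.994 and 0.991. Those most like Rian were Strn3, Ndst3 and Hnrnph1 (0.996, 0.991 and 0.988), and those most like Snhg14 were Gm3892, Hook3 and Ppp4r4 (0.987, 0.987 and 0.974). These points share libraries, depth and scaling, and 271 genes reached 0.9 with Meg3, 169 with Rian and 35 with Snhg14. How many would reach 0.9 by chance over 6 libraries was not computed, so nothing is read from these correlations.

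H19, on chromosome 7 from 142575530 to 142578146, had 9, 6 and 7 counts in the antisense libraries and 12, 3 and 5 in the sense libraries. At 0.964 ± 0.208 and 1.07 ± 0.739 CPM (SD, n = 3 each) the groups overlapped, and a difference was not detectable at this depth. Its neighbour Igf2, which encodes a fetal growth factor, had 130 and 111 counts and did not pass (log2 fold change -0.07, SE 0.288; edgeR adjusted p = 0.894).

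Among 40 other genes listed for these domains, 37 had a row and 21 were tested, of which 3 were higher, 2 lower and 16 did not pass. Of all genes 18.2% were higher and 4.35% lower, so the 3 of 21 higher are no excess. Their median log2 fold change was -0.08, against -0.01 over all genes. The largest difference was that of Rtl1, a paternally expressed gene derived from a retrotransposon, whose RefSeq span (chromosome 12 from 109564900 to 109604418) overlaps 6830 bases of Meg3 and 474 of Rian and which in mice is read from the opposite strand. Rtl1 had 351, 391 and 359 counts in antisense and 2, 2 and 3 in sense. On the CPM scale this was 48.2 ± 2.03 against 0.381 ± 0.115 (SD, n = 3 each), and the log2 fold change was 6.93 (SE 0.219; edgeR adjusted p = 7.78e-11). It passed whichever library was left out.

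In the Kcnq1 domain Trpm5, the gene of a cation channel of taste cells, was higher in antisense, with 134 counts against 24 (log2 fold change 2.17, SE 0.365; edgeR adjusted p = 0.000305). Trpm5 lies on the minus strand, 435 bases past the end of Tssc4, which is on the plus strand. Tspan32, a tetraspanin gene of blood cells, was also higher, with 82 counts against 4 (3.94, SE 0.604; edgeR adjusted p = 0.000129). Both passed whichever library was left out. The size for Tspan32 rests on sense counts of 1, 0 and 3, and its log2 fold change was 5.22 without sense replicate 3 and 3.37 without sense replicate 2. Microglia and erythroid marker sums, given above, were also higher in antisense, and their part in these 2 results was not tested. Few of those markers had enough counts to be tested. Called higher were 1 of 3 microglia markers tested and the 1 erythroid marker tested, beside 18.2% of all genes. Besides Igf2r, Herc2, the gene of a ubiquitin ligase that binds the Ube3a protein, was lower, at 347 ± 31.0 against 448 ± 50.9 CPM (SD, n = 3 each), or -0.37 on the log2 scale (SE 0.104; edgeR adjusted p = 0.0180). The Herc2 call did not survive leaving out antisense replicate 3 (adjusted p = 0.0637) or sense replicate 1 (0.0970). The tetraspanin gene Cd81 did not pass (-0.20).

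**Figure D4:**
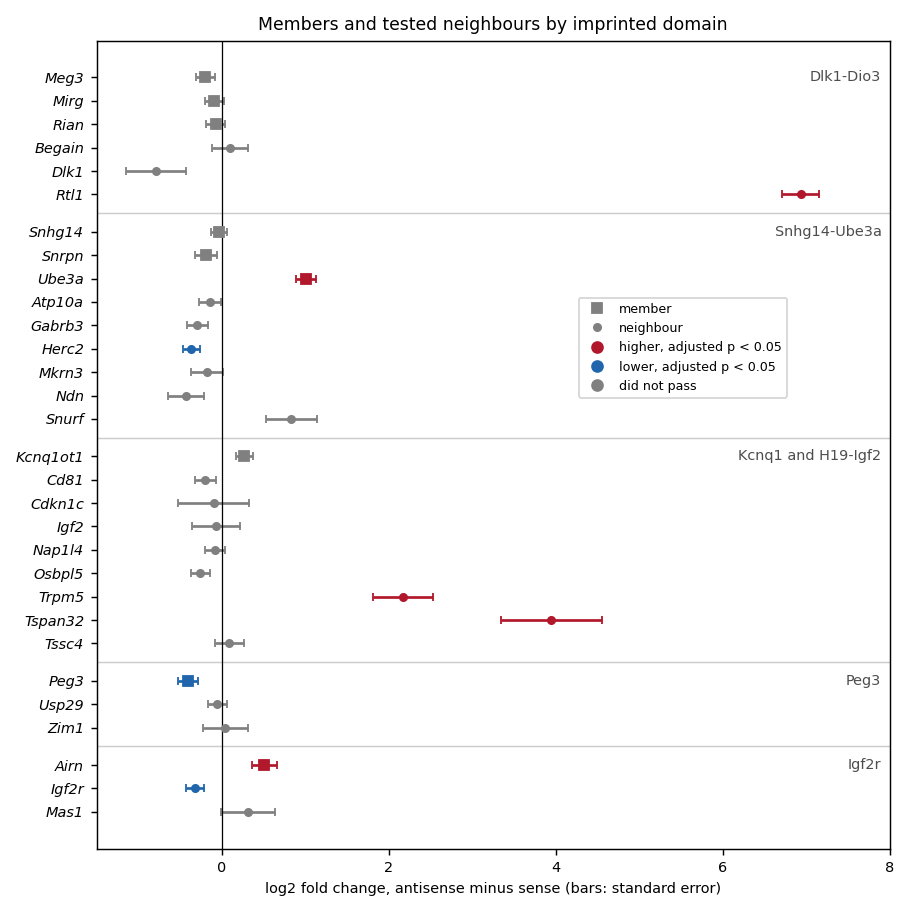
log2 fold change, antisense minus sense, with its standard error, for 9 tested members (squares) and 21 tested neighbours (circles), by domain. Red marks genes higher and blue genes lower at an edgeR adjusted p under 0.05, and grey those that did not pass. Rtl1 stands apart at 6.93, and Ube3a, at 1.01, is the highest member.

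Of 29 imprinted genes of other regions, 28 had a row and 25 were tested, with a median log2 fold change of -0.18 against -0.01 over all genes. There were 1 higher and 1 lower among them, beside 18.2% and 4.35% of all genes. Zrsr1, a splicing factor gene that lies inside Commd1 on the other strand, was higher (0.74, SE 0.114; edgeR adjusted p = 0.000131). Zdbf2, a zinc finger gene, was lower (-0.59, SE 0.162; edgeR adjusted p = 0.0146), a call that ended when antisense replicate 3 (adjusted p = 0.0539) or sense replicate 1 (0.0930) was left out. The other 23 did not pass, among them Trappc9 (-0.22), Ppp1r9a (-0.18) and Gnas (-0.31).

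Many listed genes overlap a gene on the other strand. A partner here is an overlapping gene of at least 10 CPM in sense. Among all genes tested, 596 of 1652 (36.1%) with a partner on the opposite strand were higher in antisense. With no partner on either strand the count was 1055 of 11296 (9.34%), and with a partner only on the same strand 6 of 129 (4.65%). The share was highest, 1131 of 2448 (46.2%), among genes with no position in the RefSeq table, and it was 80 of 245 (32.7%) where the strand of the partner was not given. This split was drawn up with the data in view. Genes with no strand in the RefSeq table of starts, Rtl1 among them, were higher in 790 of 4279 cases (18.5%). Of the imprinted genes listed here, 11 tested genes have such a partner on the opposite strand by the strands given. Of these 11, Ube3a and Airn were higher, Igf2r was lower, and Snhg14, Mas1, Mest, Copg2, Commd1, Nnat, Blcap and Nap1l5 did not pass. Another 9 listed genes tested had no strand given and are not counted. Only Rtl1 was higher among those 9, and by the mouse strand stated above it lies opposite Meg3. Gnas, whose partner had no strand given, is also not counted and did not pass. Snrpn, Snurf, Mcts2 and H13 have a partner only on the same strand and did not pass. Of the 30 listed genes tested with no partner on either strand, Trpm5, Tspan32 and Zrsr1 were higher and Peg3, Herc2 and Zdbf2 lower. Zrsr1 is counted there because Commd1, which overlaps it, stood at 9.92 CPM in sense, just under the limit of 10. Ndn, Herc3 and Cd81, which did not pass, are counted there too, though each overlaps a gene on the opposite strand. Those genes, Gm32061 (8.65 CPM in sense), Nap1l5 (6.27) and R74862 (4.36), are also under the limit.

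The Dlk1-Dio3 noncoding RNAs also carry miRNAs, which the small RNA libraries measured separately. The sequences printed are those of the most abundant miRNAs of the domain that RefSeq holds (GRCm38.p6), with the seed, bases 2 to 8, which pairs with targets, in capitals. Their seeds differ from each other, and miR-487b-3p is among the most abundant too.
miR-382-5p: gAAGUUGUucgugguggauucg
miR-379-5p: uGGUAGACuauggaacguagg
miR-434-3p: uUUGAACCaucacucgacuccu
miR-409-3p: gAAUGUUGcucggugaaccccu

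Of 114 miRNA rows listed for the domain and for H19, 54 had a count and 32 were tested. None of the 32 passed in edgeR, as for all 158 miRNAs tested (0% called), and none of the listed miRNAs passed with DESeq2. At an unadjusted p under 0.05 there was 1 of the 32, miR-136-3p (log2 fold change -0.66, SE 0.26; edgeR adjusted p = 0.354), chosen after its value was seen, and 18 of all 158. The log2 fold changes were 0.16 (SE 0.197) for miR-382-5p, -0.09 (SE 0.215) for miR-379-5p, -0.28 (SE 0.179) for miR-487b-3p, -0.07 (SE 0.213) for miR-434-3p and -0.13 (SE 0.214) for miR-409-3p. All antisense libraries lay above all sense libraries for 2 of the 32 and below for 2, against 8.23% and 7.59% of all miRNAs tested.

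Summed over the hairpins between Rian and Mirg, miRNAs stood at 15629, 16981 and 14076 CPM of miRNA counts in antisense and at 16052, 16643 and 15900 in sense. Those within Mirg stood at 2117, 2480 and 3360 CPM in antisense and at 2996, 2784 and 3083 in sense. In both segments the groups overlapped, and antisense replicate 3 had the lowest sum in the first and the highest in the second. Those between Meg3 and Rian stood at 5134 ± 93.0 CPM in antisense and 4928 ± 483 in sense (SD, n = 3 each), which also overlapped. The 2 rows of miR-675, which H19 carries, were at 0 in all 6 small RNA libraries, where a count of 0 allows up to 3 counts, or 11.6 to 15.5 CPM before TMM scaling.

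**Figure D5:**
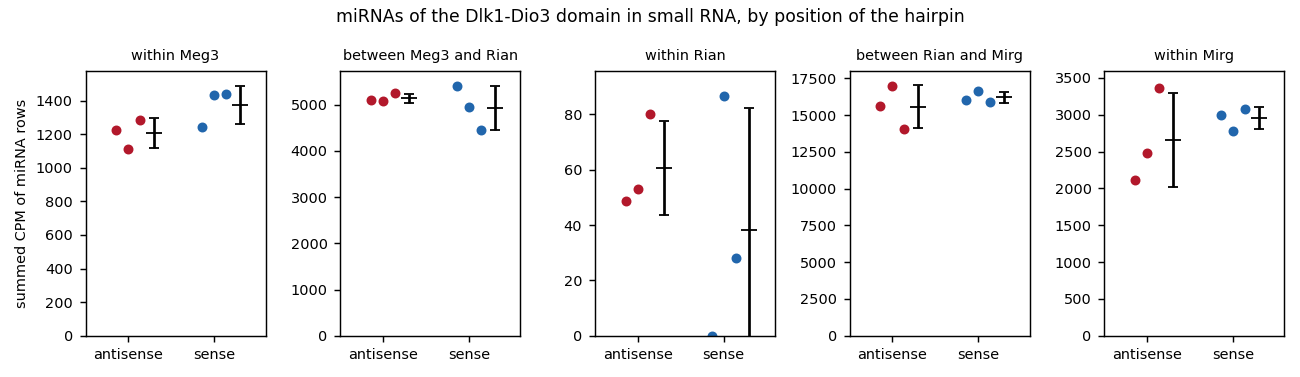
Summed CPM of listed miRNA rows in small RNA (linear axes from 0, one for each panel), by the position of the hairpin relative to Meg3, Rian and Mirg. Points are libraries, antisense in red and sense in blue, and bars are mean and SD (cut off at 0 in the panel within Rian). In the segment with the highest sums, between Rian and Mirg, antisense libraries reach 14076 to 16981 CPM and sense libraries 15900 to 16643.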

How the data were processed

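RNA from a Gas5 pulldown was sequenced as total and as small RNA, in 4 groups of 3 libraries. Per the submitters' processing notes, Salmon, DESeq and GRCm38 were used. Their versions and roles, the kit and the strand setting: not given in the sources used here. The deposited count tables hold estimated counts per gene symbol and per miRNA or transcript. The authors' deposited comparison tables give, per row, the mean signal over libraries after normalisation, the log2 fold change with its error, a test score and the p-value before and after adjustment.

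Estimated counts were rounded. Rows were kept by filterByExpr (minimum count 10) and scaled by TMM. The groups were compared with edgeR 4.0.16 (R 4.3.3; quasi-likelihood, two-sided, no covariate), adjusting over all kept rows. For small RNA only miRNA rows were used, with 193507 to 258237 counts per library. Each SE is the absolute log2 fold change divided by the root of its F statistic. Ratios within a library used log2 of counts plus 0.5 and exact permutation tests (scipy 1.17.1). Alternatives were DESeq2 1.42.0, library totals, other filters, Gas5 left out, a replicate block and leaving out each library. The fit was also run on simulated counts that gave every gene the same spread setting. These libraries need not be like that, so the run is no support for the calls. Floors cover only counting error, because reads that lack molecular identifiers need not be independent molecules.

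The members, lists and tests were chosen with earlier results of these data known. Named are all 10 members, Gas5, listed neighbours and miRNAs that passed, other imprinted genes that passed (up to 3 in each direction, by smallest p), the most abundant of each list (3 genes, 5 miRNAs), and 3 genes most correlated with each of Meg3, Rian and Snhg14. Outside that rule, Snurf, Kcnq1, Igf2, Usp29, Zim1, Tssc4, Commd1, Mas1, Mest, Copg2, Nnat, Blcap and Nap1l5 were chosen after their values were seen. So were Mcts2, H13, Ndn, Herc3, Gm32061 and R74862. RefSeq positions and starts (GRCm38.p6) were matched by symbol.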

Additional observations from a re-analysis of the deposited data

How the results depend on the processing

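Directions rest on the TMM scale. Library totals alone, which include Gas5, moved the median over all genes from -0.01 to 0.70 (log2 fold change). They called 12804 genes higher and 62 lower, 7 higher and 0 lower members, 11 higher and 0 lower neighbours, and 13 higher and 0 lower imprinted genes of other regions. They turned the log2 fold change positive for Meg3 (0.51), Rian (0.63), Mirg (0.62), Snhg14 (0.65), Snrpn (0.53), Peg3 (0.33), Cd81 (0.55), Herc2 (0.36), Igf2r (0.41), Gnas (0.44), Ppp1r9a (0.54), Trappc9 (0.49) and Zdbf2 (0.16), and negative for miR-382-5p (-0.0392). Relative to that median, Meg3, Rian, Mirg, Snhg14, Snrpn and Peg3 stayed below it, and Ube3a (1.72), Airn (1.19) and Kcnq1ot1 (0.95) above. A minimum count of 50, which tests fewer genes, gave 1795 higher and 402 lower genes, and 1 higher and 1 lower neighbour. With Gas5 left out of the totals 1 neighbour was lower. Same-numbered libraries did not deviate together (correlations from -0.059 to 0.051 in total RNA and from -0.215 to 0.027 in small RNA). With 3 libraries per group this cannot exclude that they were paired, so the replicate block serves only as an alternative. With it 1 neighbour was lower, and no member changed its call. Leaving out each library gave 1 to 3 higher and 0 to 1 lower members, 0 to 3 lower neighbours, 0 to 3 lower imprinted genes of other regions and 492 (without sense replicate 3) to 1100 (without sense replicate 2) lower genes in all. Kcnq1ot1 was the third higher member without sense replicate 2. Without antisense replicate 3 the log2 fold change turned positive for Rian (range over libraries left out -0.199 to 0.0309), Mirg (-0.184 to 0.0355), Snhg14 (-0.113 to 0.000310) and miR-434-3p (0.07). Without sense replicate 1 miR-434-3p stood at 0.16 (range -0.224 to 0.16), and without sense replicate 3 miR-379-5p turned positive (range -0.282 to 0.0463). The cause was not tested. With a pseudocount of 2 or a replicate block each of the 6 ratios within libraries kept its direction, though not its size for Kcnq1ot1 to Kcnq1. Depth limits H19 and Kcnq1. Most listed miRNA rows were at 0 in all libraries, and whether depth or the way arms were counted gave these zeros was not tested.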
